A study of Mus musculus with 12 samples.

Results

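The Elovl genes encode the elongases of very long chain fatty acids, and 6 of the 7 genes named Elovl1 to Elovl7 were found among the 14533 genes counted in the deposited table. Members were taken by gene symbol. Elovl2 was not among the genes of the table, and the 6 members counted were Elovl1, Elovl3, Elovl4, Elovl5, Elovl6 and Elovl7. All 6 had more than 0.5 CPM (counts per library size, after TMM normalization by edgeR) in at least 6 mice, as did every listed gene.

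mRNA was sequenced from scrapings of frozen dorsal epidermis of 12 untreated C57BL/6 mice, with 1 library per mouse. All mice carried Pparg flox/flox alleles. The 6 WT mice (3 female, 3 male) were Cre-/-, and the 6 Pparg-/-epi mice (4 female, 2 male) carried 1 copy of Cre driven by the Cytokeratin14 promoter. That promoter is active in basal keratinocytes of the epidermis and hair follicle. Cells that descend from them, also in the follicle and sebaceous gland, inherit the deletion. Both groups were 8 to 13 weeks old by the sample labels, from which the ages in the study's supplement differ for some mice. By the labels 4 of the 6 WT mice (replicates 3 to 6) shared a breeding number that no Pparg-/-epi mouse was given, and only WT replicate 2 shared one with a Pparg-/-epi mouse (replicate 10), so breeding and genotype cannot be told apart for most mice. Pparg-/-epi replicates 8 and 9 also shared a breeding number. The skin was non-lesional, and scraping went on into the superficial dermis, so the libraries hold RNA of dermal cells and appendages beside that of keratinocytes.

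Elongases sit in the endoplasmic reticulum and catalyze the first and rate-limiting step of the elongation cycle, the condensation of an acyl-CoA with malonyl-CoA. A ketoacyl-CoA reductase, a dehydratase and an enoyl-CoA reductase then complete the cycle, which these partners share whichever elongase began it. The elongases differ in their substrates. Elovl6 extends palmitate to stearate, Elovl5 extends polyunsaturated fatty acids, Elovl1, Elovl3 and Elovl7 act on saturated and monounsaturated chains, and Elovl4 makes the ultra-long chains of the acylceramides of the skin barrier. In the skin, Elovl3 is best known from the sebaceous gland, where its loss alters sebum, and Elovl1 and Elovl4 are needed for the epidermal barrier.

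Library totals spanned 10120840 to 16947632 counts (WT) and 11272135 to 18851255 counts (Pparg-/-epi), and 1 count was worth 0.0520 to 0.107 CPM. Altered genes were those that differed by 0.6 or more on the log2 scale, in either direction, with an adjusted p below 0.05 by the quasi-likelihood test of edgeR with Benjamini-Hochberg adjustment over all 14533 genes, and every adjusted p here is from that test unless another is named. By this rule 1493 genes (10.3%) were altered. On the first dimension of a multi-dimensional scaling plot 1 library stood apart from its group. WT replicate 2 lay at 1.19 there, within the range of the Pparg-/-epi mice (0.124 to 1.97), while the other WT mice lay between -1.99 and -0.909. WT replicate 2 also had the highest summed CPM of the WT mice for 13 hair matrix and inner root sheath markers (2214, against 28.4 to 593 in the other WT mice) and for 10 adipocyte markers (458, against 41.8 to 251). Pparg itself was not altered (log2 fold change -0.10, SE 0.71, adjusted p = 0.949), and its counts cover the whole gene, including the part left after excision, so they do not check the deletion. Keratinocyte markers were abundant in every library (9 suprabasal markers summed to 18788 to 53430 CPM and 6 basal markers to 8169 to 15328 CPM).

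Members differed in their response to the genotype. Of the 6 members, 3 were altered, against 10.3% of all genes. Elovl5 and Elovl6 fell (2 members lower, against 5.08% of all genes) and Elovl7 rose (1 member higher, against 5.19%). Elovl1, Elovl3 and Elovl4 did not pass the test. In such bulk samples fewer cells of a type and less RNA per cell cannot be told apart. The 2 groups did not overlap in 1 member, Elovl6, against 7.90% of all genes. The median log2 fold change was -0.93 over the 6 members and -0.01 over all genes tested.

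The promoters of the 3 altered members are shown here because Pparg encodes a transcription factor that binds DNA. The heterodimer of PPARs with RXR recognizes a direct repeat of AGGTCA with 1 base between the copies. The 250 bases upstream of each start are from RefSeq on GRCm38.p6 (mm10), read on the strand of the gene, and capitals mark the motifs found among those searched on both strands. These were AGGTCA, the direct repeat with at most 2 mismatches over its 12 bases, the sterol element TCACNCCAC, CCAAT and CACGTG. Elovl6 lies at chr3:129532386-129638493 (plus strand, 5 exons), Elovl5 at chr9:77917365-77984519 (plus strand, 8 exons) and Elovl7 at chr13:108214404-108287107 (plus strand, 8 exons), and the windows end at the base before these starts. They are chr3:129532136-129532385, chr9:77917115-77917364 and chr13:108214154-108214403.
Elovl6: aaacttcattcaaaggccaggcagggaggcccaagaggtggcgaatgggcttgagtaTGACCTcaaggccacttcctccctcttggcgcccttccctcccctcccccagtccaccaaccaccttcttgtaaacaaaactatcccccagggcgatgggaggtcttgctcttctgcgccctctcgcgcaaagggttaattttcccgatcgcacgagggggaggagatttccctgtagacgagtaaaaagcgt
Elovl5: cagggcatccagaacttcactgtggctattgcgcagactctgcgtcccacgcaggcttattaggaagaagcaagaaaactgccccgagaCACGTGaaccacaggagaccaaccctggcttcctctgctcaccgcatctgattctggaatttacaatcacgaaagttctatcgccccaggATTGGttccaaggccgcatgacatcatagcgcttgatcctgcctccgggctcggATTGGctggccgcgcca
Elovl7: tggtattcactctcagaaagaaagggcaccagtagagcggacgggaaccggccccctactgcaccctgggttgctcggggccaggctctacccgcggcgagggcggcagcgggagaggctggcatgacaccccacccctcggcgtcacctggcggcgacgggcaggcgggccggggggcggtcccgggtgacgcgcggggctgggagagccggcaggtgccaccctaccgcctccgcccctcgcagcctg

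Elovl6 held 1 copy of AGGTCA, on the minus strand at bases -193 to -188 (the base before the start is -1), a hexamer that 14% of 32841 RefSeq promoter windows of the same length held. Elovl5 held CACGTG at bases -161 to -156 (6.02% of windows) and CCAAT at 2 positions on the minus strand, at bases -71 to -67 and -17 to -13 (33.9% of windows). Elovl7 held none of the 5 motifs and was rich in G and C (73.6%, against a median of 52.4% over all windows). The direct repeat was found in none of these 3 windows and in 3.24% of all windows. Among the other members it was found in the window of a second start of Elovl1, at chr4:118429451-118429700, where AGGCCACAGGTCA lay on the minus strand with 1 mismatch. The sterol element (1.05% of windows) was found in no member. Elovl3 had no entry among the promoters used. A match is a description of letters, and its absence from a window says nothing of binding elsewhere.

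Elovl6, which supplies stearate and through it oleate, was the member with the smallest adjusted p. Its counts scaled to 498, 880.2, 311, 403, 431 and 301 CPM in WT replicates 1 to 6 and to 149, 112, 136, 203, 176 and 173 CPM in Pparg-/-epi replicates 7 to 12. Every Pparg-/-epi mouse lay below every WT mouse, and WT replicate 2 was far above the other WT mice. The mean fell from 471 ± 214 to 158 ± 32.6 CPM (SD, n = 6 each), a log2 fold change of -1.57 (SE 0.25, adjusted p = 0.00165). Leaving out WT replicate 2 gave -1.31 (adjusted p = 0.000307).

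Elovl5, the elongase of polyunsaturated fatty acids, fell by 1.97 on the log2 scale (SE 0.49, adjusted p = 0.0169), from 128 ± 107 to 32.8 ± 2.98 CPM (SD, n = 6 each). The WT mice had 210.2, 296, 38.3, 52.8, 139 and 34.6 CPM in replicates 1 to 6, and the Pparg-/-epi mice had 34.0, 37.6, 29.8, 29.8, 31.9 and 33.9 CPM in replicates 7 to 12. WT replicates 1, 2 and 5 stood far above all other mice. WT replicate 6 lay within the range of the Pparg-/-epi mice and WT replicate 3 just above it, so the groups overlapped. The highest WT value was 8.56 times the lowest, while among Pparg-/-epi mice this ratio was 1.26. Elovl5 was uniformly low in Pparg-/-epi mice and variable in WT mice.

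Elovl7, an elongase of saturated and monounsaturated long chains, was the member that rose, from 117 ± 47.4 to 203 ± 20.8 CPM (SD, n = 6 each), a log2 fold change of 0.79 (SE 0.20, adjusted p = 0.0199). Its values were 128, 209, 97.7, 87.5, 96.3 and 85.9 CPM in WT replicates 1 to 6 and 219.5, 173, 215, 184, 204 and 225 CPM in Pparg-/-epi replicates 7 to 12. The groups overlapped through WT replicate 2, the WT mouse with the highest Elovl7, and the other WT mice all lay below the lowest Pparg-/-epi mouse. Leaving out WT replicate 2 gave 1.02 (adjusted p = 0.000144). Without Pparg-/-epi replicate 7 or 9 it was 0.75 in each case, with adjusted p = 0.0510 and 0.0507, so the call rested on a narrow margin. With only WT replicates 1 and 2 left, after removal of the 4 WT mice of one breeding number, it was 0.29 (adjusted p = 0.442).

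**Figure D1:**
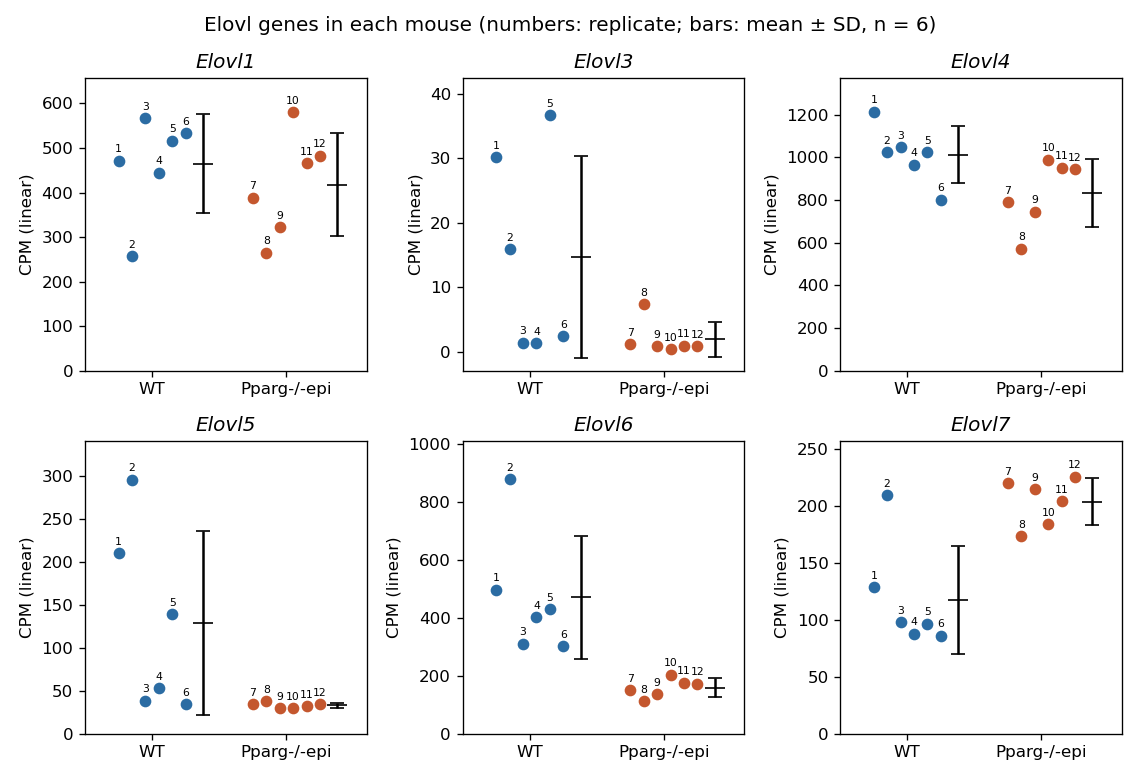
TMM-normalized CPM (linear axis from 0 or just below) of the 6 Elovl genes in each of 6 WT (blue) and 6 Pparg-/-epi (orange) mice, numbered by replicate, with the mean ± SD beside each group. Elovl6 separated the groups, Elovl5 and Elovl3 were high in WT replicates 1, 2 and 5, and Elovl7 was higher in Pparg-/-epi mice except against WT replicate 2.

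Elovl1, the elongase of saturated very long chains used in ceramides and sphingomyelin, had 257 to 567 CPM in WT mice (median 494) and 265 to 581 CPM in Pparg-/-epi mice (median 428). The ranges nearly coincided. The means were 465 ± 111 and 418 ± 115 CPM (SD, n = 6 each), and the log2 fold change of -0.16 (SE 0.21, adjusted p = 0.682) lay within the spread between mice. The lowest values were those of WT replicate 2 and Pparg-/-epi replicate 8, the mice with the highest summed hair matrix and inner root sheath markers of their groups (2214 and 4812 CPM) and the lowest summed suprabasal keratinocyte markers (18788 and 26343 CPM). Their RNA integrity numbers (RIN) were 8.6 and 8.5, against 5.7 to 8.6 over all mice, and with RIN as covariate the log2 fold change of Elovl1 was 0.05 (adjusted p = 0.879). The part of these markers in the Elovl1 values was not tested.

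Elovl4, the elongase of ultra-long chains, was the most abundant member and the gene of rank 96 by mean CPM of the 14533. It ranged from 801 to 1214 CPM in WT mice (median 1025) and from 571 to 989 CPM in Pparg-/-epi mice (median 867). The means were 1013 ± 133 and 832 ± 160 CPM (SD, n = 6 each), a log2 fold change of -0.28 (SE 0.15, adjusted p = 0.218). The groups overlapped through WT replicates 4 and 6 (965 and 801 CPM), while the other WT mice lay above every Pparg-/-epi mouse. Pparg-/-epi replicate 8 was the lowest mouse.

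Elovl3, which the study places in the sebaceous gland and the hair follicle epithelium, was the least abundant member. It had 472, 299, 13, 20, 464 and 38 counts in WT replicates 1 to 6 (30.2, 15.9, 1.39, 1.34, 36.7 and 2.39 CPM) and 22, 122, 14, 4, 10 and 10 counts in Pparg-/-epi replicates 7 to 12 (1.14, 7.40, 0.848, 0.333, 0.904 and 0.859 CPM). WT replicates 1, 2 and 5 were high, as they were for Elovl5, and Pparg-/-epi replicate 8 lay above the other 3 WT mice. The difference was large but did not pass the threshold (log2 fold change -2.91, SE 0.98, adjusted p = 0.0637). Leaving out Pparg-/-epi replicate 8 gave -4.15 (adjusted p = 0.0171), and the likelihood ratio test of edgeR gave an adjusted p of 0.0160 with all mice.

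**Figure D2:**
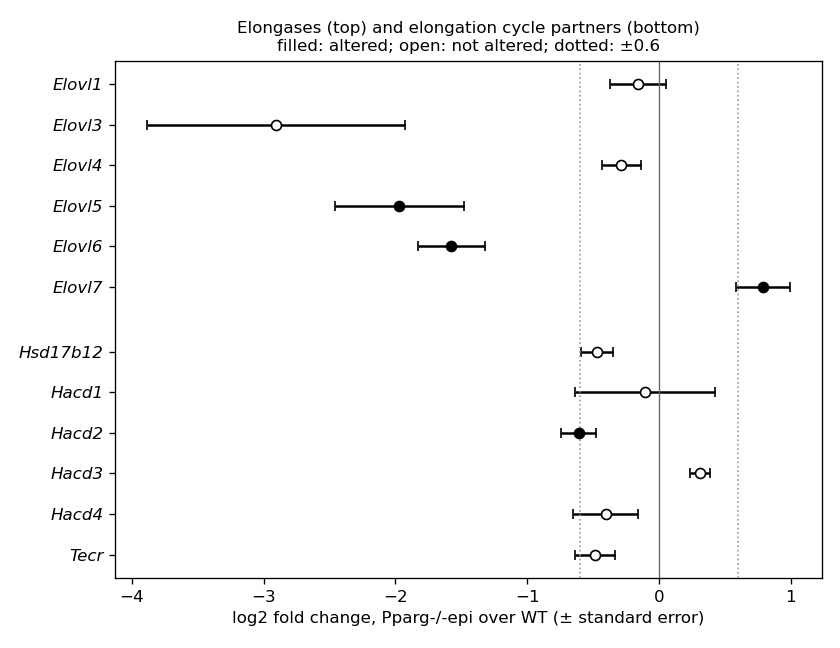
Log2 fold change of Pparg-/-epi over WT mice (bars: standard error; filled points: altered; dotted lines: the size threshold of 0.6) for the 6 elongases and the 6 elongation cycle partners in the table. Elovl5 and Elovl6 lay below -1.5 and Elovl7 at 0.79, while the partners lay between -0.61 and 0.31.

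Compared per length (RPKM, the CPM divided by the length of the gene's exons in kilobases), Elovl4 and Elovl1 led in both groups. In WT mice the mean RPKM was 332 ± 43.6 for Elovl4, 240 ± 57.1 for Elovl1, 79.1 ± 36.0 for Elovl6, 46.2 ± 38.6 for Elovl5, 21.6 ± 8.71 for Elovl7 and 7.79 ± 8.35 for Elovl3 (SD, n = 6). The range of every member overlapped that of its neighbour in this order. Within mice the order held for Elovl4 above Elovl1 in 5 of 6, for Elovl6 above Elovl5 in 6 of 6 and for Elovl5 above Elovl7 in 4 of 6.

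In Pparg-/-epi mice the order of the middle members was different. After Elovl4 (272 ± 52.5 RPKM) and Elovl1 (215 ± 59.5 RPKM) came Elovl7 (37.4 ± 3.82 RPKM), then Elovl6 (26.6 ± 5.47), Elovl5 (11.8 ± 1.07) and Elovl3 (1.02 ± 1.44; SD, n = 6). Elovl7 lay above Elovl6 in 5 of 6 mice, although their ranges overlapped. The ranges did not overlap between Elovl1 and Elovl7, between Elovl6 and Elovl5, or between Elovl5 and Elovl3.

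As a share of the summed Elovl RPKM, Elovl4 and Elovl1 together took most of the total in every mouse. Elovl4 took 45.6% ± 2.56 in WT and 48.4% ± 1.48 in Pparg-/-epi mice, and Elovl1 33.6% ± 9.61 and 37.7% ± 3.02. Elovl6 took 10.8% ± 4.31 in WT mice (7.26 to 19.2%) and 4.71% ± 0.115 in Pparg-/-epi mice (4.53 to 4.86%), a band narrow among mice whose Elovl6 CPM differed 1.82-fold. Elovl7 took 2.94% ± 1.02 and 6.84% ± 1.34, Elovl5 6.04% ± 4.75 and 2.20% ± 0.672, and Elovl3 0.999% ± 1.05 and 0.231% ± 0.381 (SD, n = 6 for each). The summed RPKM was 726 ± 82.3 in WT mice and 564 ± 115 in Pparg-/-epi mice, with ranges of 617 to 839 and 392 to 702 that overlapped.

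**Figure D3:**
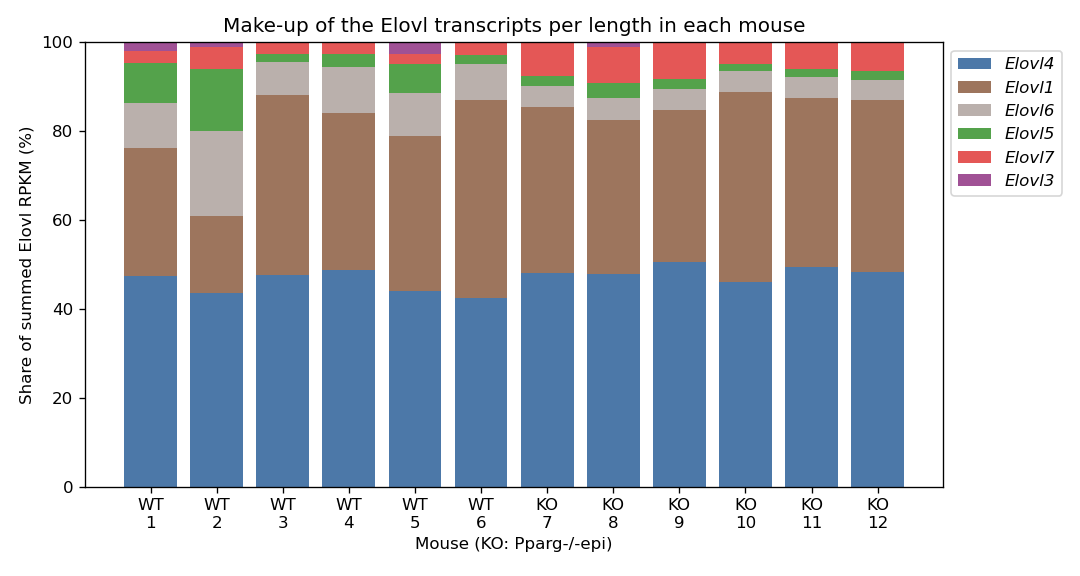
Share (%) of each member in the summed Elovl RPKM of each mouse, stacked to 100% (WT replicates 1 to 6, then Pparg-/-epi replicates 7 to 12). Elovl6 took 7.26 to 19.2% (WT) and 4.53 to 4.86% (Pparg-/-epi), and Elovl5 was widest in WT replicates 1, 2 and 5.

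Ratios between members of the same library do not depend on how libraries are scaled. As log2 of the CPM ratio, Elovl6 over Elovl7 was 1.98 ± 0.21 in WT mice (1.67 to 2.20) and -0.38 ± 0.31 in Pparg-/-epi mice (-0.66 to 0.15; SD, n = 6 each), a difference of -2.36. WT replicate 2, which was the highest WT mouse for both genes, lay within the other WT mice on this ratio, and the groups were far apart. Elovl4 over Elovl6 was 1.20 ± 0.51 in WT mice (0.22 to 1.75) and 2.40 ± 0.067 in Pparg-/-epi mice (2.28 to 2.46). The groups also did not overlap for Elovl5 over Elovl7 (-1.35 to 0.71 in WT, -2.85 to -2.21 in Pparg-/-epi mice) and for Elovl1 over Elovl6 (-1.77 to 0.87 and 1.25 to 1.52). The remaining 11 of the 15 pairs overlapped. No test was run on the ratios, since their members were picked with the fold changes known.

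**Figure D4:**
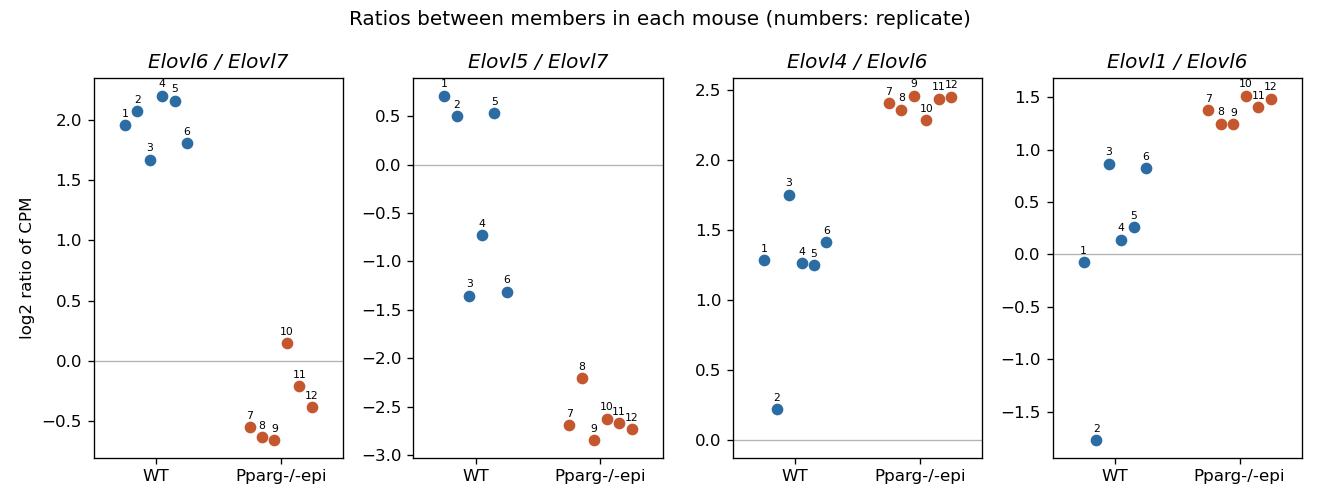
Log2 ratio of CPM between 2 members in each mouse (numbered by replicate), for the 4 of 15 pairs whose groups did not overlap. Elovl6 over Elovl7 was 1.67 to 2.20 (WT) and -0.66 to 0.15 (Pparg-/-epi), and Elovl4 over Elovl6 spanned 2.28 to 2.46 in Pparg-/-epi mice.

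WT replicates 1, 2 and 5, the mice with high Elovl5 and Elovl3, were also those with the highest sebocyte markers. Of 12 listed markers of sebocytes, the lipid-filled cells of the sebaceous gland, 10 were in the table. Of these 7 were lower and none higher in Pparg-/-epi mice, against 5.08% and 5.19% of all genes. All 7 (Scd3, Fa2h, Awat1, Awat2, Far2, Soat1 and Acaa1b) are among the sebaceous genes that the study listed as suppressed in these mice. Their fall was known when the list was chosen, so the count is no separate evidence of it. The summed CPM of the 10 markers was 1003, 1383, 479, 462, 815 and 439.5 in WT replicates 1 to 6 and 237 to 324 in Pparg-/-epi mice. In Pparg-/-epi mice Dgat2 (mean 236.5 CPM), which was not altered, made up most of this sum. There Scd3, Fa2h, Awat1, Awat2, Far2 and Acaa1b had means of 0.164 to 0.956 CPM. Among the defining markers, Scd3, Fa2h and Acaa1b had 0 counts in 1 Pparg-/-epi mouse each and Awat1 in 2, and none was at 0 in a WT mouse. Elovl6 followed the same order in its highest mice (WT replicates 2, 1 and 5), whereas Elovl7 was high both in WT replicate 2 and in the Pparg-/-epi mice, where the markers were lowest. Among WT mice, replicates 1, 2 and 5 also had the highest summed fibroblast, endothelial and adipocyte markers. These were 34533, 10471 and 8235 CPM for fibroblast, 79.3, 133 and 36.0 CPM for endothelial and 75.2, 458 and 251 CPM for adipocyte markers. The part of the sebocyte or these other markers in the Elovl values was not tested.

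**Figure D5:**
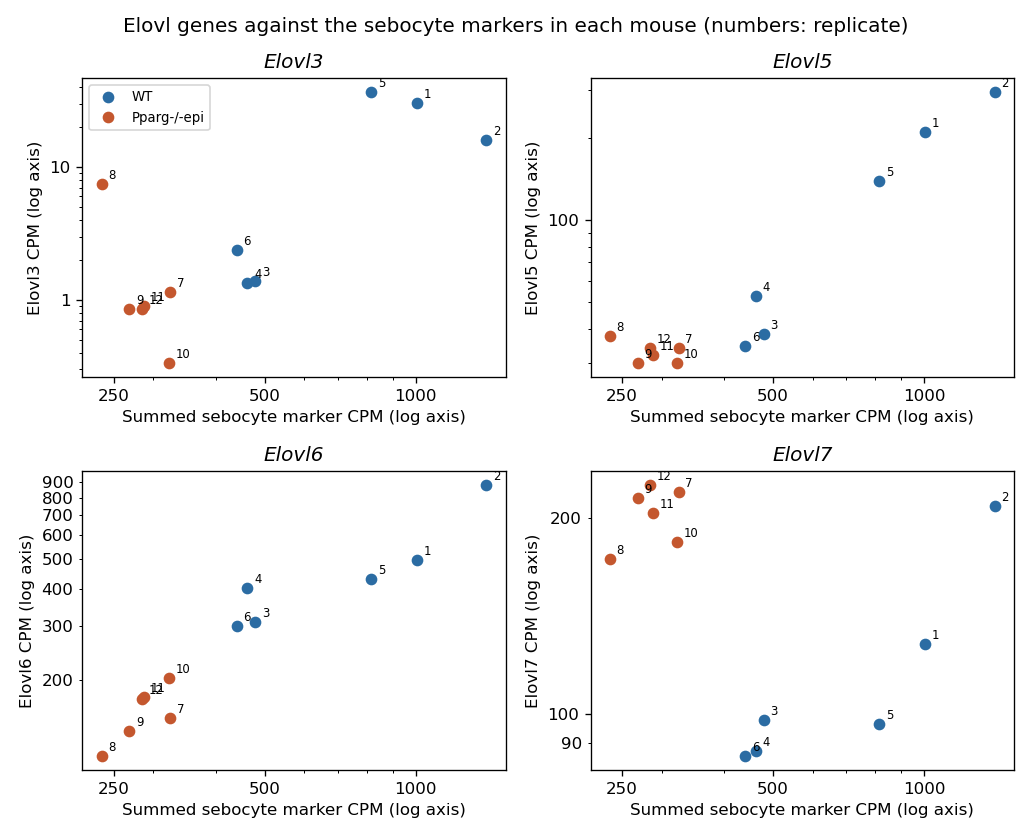
CPM of Elovl3, Elovl5, Elovl6 and Elovl7 against the summed CPM of 10 sebocyte markers in each mouse (both axes logarithmic, numbered by replicate). WT replicates 1, 2 and 5 were high on both axes for Elovl3, Elovl5 and Elovl6, and Pparg-/-epi replicate 8 had 7.40 CPM of Elovl3 with the lowest marker sum (237). In Pparg-/-epi mice the sum was mostly Dgat2, which was not altered.

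The other marker lists are given beside the 10.3% of all genes that were altered. Of 10 markers of the hair follicle outer sheath and bulge, 2 were lower (Krt15 and Lgr6) and 1 higher (Postn). The sum of the 10 was 3248 to 4930 (WT) and 1695 to 2380 CPM (Pparg-/-epi). Krt15 alone had means of 3370 and 1011 CPM, and the median log2 fold change of this list was -0.05. Of 13 hair matrix and inner root sheath markers none was altered, with sums of 28.4 to 2214 and 175 to 4812 CPM. Of 10 adipocyte markers 1 was lower (Adrb3), with sums of 41.8 to 458 and 59.4 to 279 CPM. Of the basal keratinocyte markers 1 of 6 was higher, of the suprabasal ones 1 of 9, of endothelial markers 1 of 6, and of leukocyte markers 1 of 7 was higher and 1 lower. None of the 6 fibroblast, 6 skeletal muscle and 5 melanocyte markers was altered. The fibroblast sum was 34533 CPM in WT replicate 1, against 1014 to 11169 CPM in the other mice. In WT replicate 5 the skeletal muscle sum was 9431 CPM, against 8.82 to 386 CPM in the other mice. The part of these lists in the Elovl results was not tested.

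Of the 6 partners that complete the elongation cycle and were in the table, 1 was altered, Hacd2, which fell. The share among all genes was 10.3%, and the median log2 fold change of the partners was -0.43, against -0.01 over all genes. Hacd2, a dehydratase of the cycle, went from 113 ± 15.3 to 73.9 ± 14.4 CPM (log2 fold change -0.61, SE 0.13, adjusted p = 0.00907), without overlap of the groups. Its fold change lay next to the size threshold, and the call was lost in 5 of the 12 fits without 1 mouse. Hsd17b12, the ketoacyl-CoA reductase, and Tecr, the enoyl-CoA reductase, had adjusted p values of 0.0216 and 0.0490 with log2 fold changes of -0.47 (SE 0.12) and -0.48 (SE 0.15), below the size threshold. Tecr had 307 ± 63.7 (WT) and 219 ± 33.9 CPM (Pparg-/-epi; SD, n = 6 each). Hacd3, another dehydratase, had a log2 fold change of 0.31 (SE 0.08, adjusted p = 0.0158), opposite in sign to Hacd2, and also with groups that did not overlap. Hacd1 (2.31 and 2.14 CPM) and Hacd4 (6.60 and 5.00 CPM) were low in both groups and not altered. Tecrl was not among the genes of the table.

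Fatty acid synthesis supplies the substrates of the elongases. Of its 10 genes, 3 were lower and none higher, against 5.08% and 5.19% of all genes. These were Acacb, an acetyl-CoA carboxylase (log2 fold change -1.99, SE 0.54, adjusted p = 0.0260), Me1, the malic enzyme that makes NADPH (-0.90, SE 0.20, adjusted p = 0.0102), and Fasn, the fatty acid synthase that makes palmitate (-0.62, SE 0.16, adjusted p = 0.0176). The groups overlapped in each of these 3 genes. Acaca, the acetyl-CoA carboxylase of cytosolic malonyl-CoA, had 74.2 ± 16.8 (WT) and 78.4 ± 11.4 CPM (Pparg-/-epi) and was not altered. Acly, which makes cytosolic acetyl-CoA, had 261 ± 26.8 and 209.7 ± 24.8 CPM (log2 fold change -0.31, SE 0.10), under the size threshold.

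Of 11 acyl-CoA synthetases and transporters in the table, 2 were lower and none higher, against 5.08% and 5.19% of all genes. The 2 were Slc27a2 (log2 fold change -4.36, SE 0.63) and Acsl6 (-1.44, SE 0.34), both at low levels. The 4 most abundant (Acsl1, Acsbg1, Acsl5 and Slc27a4) were not altered, of which Acsl5 (log2 fold change -0.44, SE 0.08, adjusted p = 0.00223) and Acsbg1 (-0.43, SE 0.12, adjusted p = 0.0308) passed the p threshold but not the size threshold. Of 9 desaturases in the table, which act on the same chains, 2 were lower and 1 higher, against the same 5.08% and 5.19%. Scd1, which makes oleate from the stearate that Elovl6 supplies, fell from 944 ± 504 to 226 ± 40.0 CPM (log2 fold change -2.06, SE 0.30, adjusted p = 0.000985), without overlap of the groups. The study lists Scd1 too among its sebaceous gland genes. Scd3, a sebaceous paralog that is also among the sebocyte markers, fell by 7.68 on the log2 scale (SE 1.23, adjusted p = 0.00160). Degs2, which hydroxylates and desaturates dihydroceramide, rose from 2.03 ± 2.60 to 15.4 ± 6.70 CPM (log2 fold change 2.88, SE 0.78, adjusted p = 0.0257). Scd2 (130.4 and 156 CPM) was not altered, and Degs1, at 93.1 and 130.0 CPM (log2 fold change 0.48, adjusted p = 0.0124), was under the size threshold.

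The acylceramide route and the ceramide synthases use the products of Elovl1 and Elovl4. Of 12 genes of the route 1 was altered, against 10.3% of all genes. Pnpla1, the transacylase that completes acylceramide, rose from 86.1 ± 8.34 to 141 ± 18.8 CPM (log2 fold change 0.72, SE 0.10, adjusted p = 0.000965), without overlap of the groups. Abca12, the lipid transporter of lamellar granules, had 529 ± 96.8 and 554.5 ± 117 CPM, and Sdr9c7, Ugcg and Tgm1 were also not altered. Of 5 ceramide synthases 1 was altered, against the same 10.3% of all genes. Cers4 fell (71.6 ± 56.4 to 13.7 ± 5.12 CPM, log2 fold change -2.38, SE 0.54, adjusted p = 0.0112). Its groups overlapped, and the study lists Cers4 among its sebaceous gland genes. Cers3, the synthase of ultra-long chain ceramides, had 149 ± 37.8 and 143 ± 24.7 CPM (log2 fold change -0.06, SE 0.18, adjusted p = 0.863). Of 12 genes of peroxisomal beta-oxidation, which shortens very long chains, 1 was lower and none higher, against 5.08% and 5.19% of all genes. This was Acaa1b, a thiolase that is also among the sebocyte markers (log2 fold change -4.57, SE 1.15, adjusted p = 0.0180).

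Among 16 regulators of lipogenesis, 2 were lower and 1 higher, against 5.08% and 5.19% of all genes. Leaving out WT replicate 2 gave 5 altered regulators, and leaving out the 4 WT mice of one breeding number gave 1. Ppara, a nuclear receptor of fatty acids, fell from 34.2 ± 4.65 to 13.8 ± 2.38 CPM (log2 fold change -1.31, SE 0.14, adjusted p = 0.000167). Srebf1, which encodes the lipogenic factor SREBP, fell from 97.7 ± 6.67 to 64.2 ± 10.1 CPM (log2 fold change -0.60, SE 0.10, adjusted p = 0.00265), next to the size threshold, and Ppargc1b, a coactivator, rose from 6.40 ± 1.05 to 11.3 ± 1.93 CPM (log2 fold change 0.82, SE 0.16, adjusted p = 0.00456). In each of these 3 genes all WT mice lay on one side of all Pparg-/-epi mice. Rxra (307 and 281 CPM), Srebf2 (142 and 137 CPM), Scap (123 and 140.1 CPM) and Insig2 (80.9 and 126 CPM) were not altered.

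Within groups, the members differed in the genes they varied with. The measure was Pearson's r of log2 CPM centred on the group mean over the 12 libraries, which share their total and their mixture of cells, and it is given as a description. The closest genes were picked as the highest among 12129 genes with a mean of at least 50 counts. The SD of log2 CPM of Elovl5 was 1.33 in WT and 0.129 in Pparg-/-epi mice, so its r rested mainly on the WT mice. For Elovl5 the 3 closest genes were Soat1 (r = 0.975), Far2 (0.971) and Xylt2 (0.963), of which Soat1 and Far2 are among the sebocyte markers. For Elovl6 they were Tnxb (0.942), Paqr7 (0.907) and Awat1 (0.903), and for Elovl3 Dynll2 (0.941), Sema6c (0.932) and Cers4 (0.930). For Elovl7 they were Cst6 (0.971), Klk10 (0.965) and Acox3 (0.948), and for Elovl1 Tmem54 (0.979), Dkkl1 (0.979) and Rabep2 (0.976). For Elovl4 they were Fam46a (0.896), Rnf11 (0.887) and 9130019O22Rik (0.883). Without the 2 libraries farthest from the median of the member, r ranged from 0.933 to 0.935 for the 3 genes of Elovl1, from 0.905 to 0.933 for Elovl3, from 0.717 to 0.771 for Elovl4, from 0.940 to 0.946 for Elovl5, from 0.820 to 0.865 for Elovl6 and from 0.838 to 0.892 for Elovl7.

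Between members, the same measure was highest for Elovl6 with Elovl7 (0.815), Elovl3 with Elovl5 (0.783), Elovl5 with Elovl7 (0.777) and Elovl5 with Elovl6 (0.758). Leaving out WT replicate 2 gave 0.552, 0.826, 0.639 and 0.594 for the same pairs. Within the 6 Pparg-/-epi mice alone they were 0.235, 0.866, -0.24 and -0.62. Other pairs led in these settings. Without WT replicate 2 the highest r was that of Elovl4 with Elovl6 (0.829). In Pparg-/-epi mice alone it was that of Elovl1 with Elovl6 (0.994), a pair at -0.93 in WT mice alone.

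Both sexes were present in each group, and the difference of the genotype effect between them was tested as an interaction. No gene of the 14533 had an adjusted p under 0.05 in the quasi-likelihood test, 741 had an unadjusted p under 0.05 (325 to 2247 in the fits without 1 mouse, the highest without WT replicate 2), and the likelihood ratio test called 4. The adjusted p values of the members ranged from 0.895 to 0.993. The interaction of Elovl3 was the largest of the members on the log2 scale, at 3.90 (SE 2.00, female minus male). Elovl3 had 22.7 ± 18.8 CPM in 3 WT males and 6.53 ± 8.10 CPM in 3 WT females, against 0.596 ± 0.372 CPM in 2 Pparg-/-epi males and 2.57 ± 3.22 CPM in 4 Pparg-/-epi females, of which replicate 8 was one. With so few mice of a sex per group, such differences were not detectable beyond the spread between mice.

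Little sequence of the members is shared with other genes. No 75-base stretch of the GENCODE M21 transcripts of Elovl1, Elovl3, Elovl4, Elovl5 or Elovl7 occurred in a transcript of another gene, and 2.05% of those of Elovl6 did. Exons of Cdc20 overlapped those of Elovl1 (chr4:118428093-118432952, plus strand) by 52 bases on the opposite strand, exons of Pitx3 those of Elovl3 (chr19:46131899-46135694, plus strand) by 10 bases, and exons of the antisense gene Gm35986 those of Elovl6 by 3 bases. No such overlap was found for Elovl4 (chr9:83778692-83806305, minus strand), Elovl5 or Elovl7. How the counting used the strand is not given in the sources used here, so reads from these overlaps cannot be told apart.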

How the data were processed

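Epidermal scrapings of 6 WT and 6 Pparg-/-epi mice were sequenced, with 1 library per mouse. Per the labels and methods, the authors used STAR 2.5.2b for alignment to mm10, left out reads of low mapping quality or with several positions, and counted the rest per refGene gene with featureCounts of Subread 1.5.1. The deposited values are raw counts without normalization for 14533 genes, all above 0.5 CPM in at least 6 libraries. Blank rows (2800) hold no gene or counts and were dropped. Another deposited column holds the exon length of each gene, which the authors took from the annotation and which was used for RPKM.

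Counts were normalized by TMM and compared with the quasi-likelihood test of edgeR 4.0.16 in R 4.3.3, in a model holding genotype alone, and p values were adjusted by Benjamini-Hochberg over the whole table. SE is the absolute log2 fold change divided by the square root of F. The methods name the likelihood ratio test of edgeR, run here as an alternative, as was DESeq2 1.42.0. Scripts were tested on simulated data. Library totals are given in the text. Libraries were assigned to mice by the names in the labels and, for Pparg-/-epi replicates 11 and 12, by the library numbers of the study's run sheet. Ages are those of the sample labels, which differ from the study's supplement for some mice.

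The members and gene lists were chosen with earlier results of these data known. Named genes are all members, all elongation cycle partners, the 4 most abundant and up to 4 altered genes of each further list, and the 3 genes most like each member. Some genes that the rule selects are covered only by the counts for their list.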

Additional observations from a re-analysis of the deposited data

Results flagged for a closer look

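Chance gives such a value in about 1 of 20 groups, and 26 groups of 6 mice were examined. Pparg-/-epi replicate 8 had 7.40 CPM of Elovl3, far above the other Pparg-/-epi mice, and Elovl3 took 1.01% of its summed Elovl RPKM. This mouse also had the highest hair matrix and inner root sheath marker sum (4812 CPM), and its sebocyte marker sum was the lowest (237 CPM). In Pparg-/-epi mice the sebocyte sum was mostly Dgat2, which was not altered. The part of these markers in its Elovl3 value was not tested.

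WT replicate 2 had 880.2 CPM of Elovl6 and 209 CPM of Elovl7, each far above the other WT mice, and these genes took 19.2% and 4.99% of its summed Elovl RPKM. Its ratio of Elovl6 to Elovl7 lay within the other WT mice. It had the highest sebocyte (1383 CPM), adipocyte (458 CPM) and hair matrix (2214 CPM) marker sums of the WT mice, as it did for leukocyte (2023 CPM), endothelial (133 CPM) and melanocyte (68.3 CPM) markers. Its suprabasal (18788 CPM) and basal (8169 CPM) keratinocyte marker sums were the lowest of all 12 mice. The part of these markers in the values was not tested.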

How the results depend on the processing

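No paired analysis was possible because by the labels only 1 breeding number occurred in both groups. Mice of 1 group that shared a breeding number were treated as independent in every test. Over the fits without 1 mouse, altered genes numbered 1116 to 2249 (the highest without WT replicate 2) and altered members 2 to 4. Of the alternatives using fewer mice, females alone gave 651 altered genes and 1 altered member, males alone 18 and 0, and leaving out the 4 WT mice of one breeding number 389 altered genes. In males alone the log2 fold changes were -2.04 for Elovl5 (adjusted p = 0.273), -1.15 for Elovl6 (adjusted p = 0.137) and 0.91 for Elovl7 (adjusted p = 0.132), and in females alone -1.93 for Elovl5 (adjusted p = 0.132) and 0.67 for Elovl7 (adjusted p = 0.247). Without the 4 WT mice of one breeding number, which leaves 2 WT mice, Elovl5 was at -2.93 (adjusted p = 2.73e-05), Elovl6 at -2.11 (adjusted p = 0.00274) and Elovl7 at 0.29 (adjusted p = 0.442). The 2 mice left (replicates 1 and 2) had the highest Elovl5, Elovl6 and Elovl7 of the WT mice, so these values follow from which mice remained. Elovl5 and Elovl6 were called in all 12 fits without 1 mouse (log2 fold changes -2.17 to -1.54 and -1.67 to -1.31), Elovl7 in 10 (0.72 to 1.02) and Elovl3 in 2, without WT replicate 3 (adjusted p = 0.0499) and without Pparg-/-epi replicate 8. Elovl3 was also called by DESeq2 (adjusted p = 0.0162). RLE size factors, library totals, the filter of 10 counts in 6 libraries, and sex, age or RIN as covariate left the calls of Elovl3, Elovl5, Elovl6 and Elovl7 as they were. No interaction with sex was called for a member in any of the 14 alternatives. Elovl1 and Elovl4 were called in none of the alternatives. Altered genes of the lists varied with the setting. Without 1 mouse they numbered 0 to 1 for the elongation partners, 2 to 4 for desaturases, fatty acid synthesis and acyl-CoA synthetases, 1 to 2 for ceramide synthases and peroxisomal beta-oxidation, 1 for the acylceramide route and 2 to 5 for regulators. In the other 11 alternatives the highest counts were 1, 3, 4, 3, 2, 3, 1 and 4 in that order, and the lowest was 0 for each list, with males alone. The peroxisomal count was 0 with the filter of 10 counts and 3 with RIN as covariate. Depth limits mainly Elovl3, with 4 to 122 counts in Pparg-/-epi mice.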
